A study of Homo sapiens with 2 samples.

Results

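The netrin receptors and their ligands were followed in human cerebral organoids as 9 genes taken by name from the 62704 genes of the deposited tables. The 9 genes are the attractive receptors DCC and NEO1, the repulsive receptors UNC5A, UNC5B, UNC5C and UNC5D, the ligands NTN1 and NTN4, and the secreted netrin antagonist DRAXIN. All 9 were found in both libraries of the study, 1 of single cells and 1 of nuclei, and all 9 passed the minimum of 100 transcripts used below. Only barcodes that exceeded 500 genes and 1000 transcripts, and in which mitochondrial genes took no more than 20% of the transcripts, were read, and these were 20178 of 1303455 barcodes in the cell library and 14228 of 197446 in the nuclear library.

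The study asked how the shape of an organoid affects the fate of its cells. All organoids came from H9, an established human embryonic stem cell line, with no genetic change named in the labels, so the data describe a single genotype. The cells pooled unperturbed cerebral organoids (CO) at days 45, 55 and 70, organoids dissociated at day 45 and left to reaggregate (DISS) at days 48, 55 and 70, and organoids taken out of Matrigel at day 13 and held in 3% agarose (CONS) at day 55. The nuclei were a control for dissociation on CO at day 45, prepared from whole organoids and from cell suspensions by the study's methods, although the treatment label of that library also names the dissociated and embedded conditions. Every barcode of a library carries the same sample name, so conditions, days and organoids cannot be told apart here, and each library was used as 1 sample without replicates and without a test.

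Both libraries were made by split-seq, in which the RNA of a cell or nucleus is labelled in successive rounds of wells and a combination of labels, the barcode, stands for 1 cell or nucleus. The libraries held 254967545 and 82339738 transcripts, and the kept barcodes had medians of 2615 transcripts in the cells and 3890 in the nuclei. A level is the sum of a gene's transcripts in a type per 10000 transcripts of that type, with a 95% exact Poisson interval and its range over sub-libraries (8 of the cells, 2 of the nuclei), which are technical divisions of the library. A share is the percentage of barcodes with at least 1 transcript after every barcode was thinned to 1000 transcripts, with a 95% exact (Clopper-Pearson) binomial interval. These intervals cover counting error only, and the ranges over sub-libraries cover technical spread only. Neither covers the spread between wells or organoids. The kept barcodes of the 2 libraries had 99 names in common, which is possible because the well labels were reused.

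Netrins are secreted proteins that steer growing axons and migrating neurons. DCC draws a growth cone towards netrin, whereas the UNC5 receptors turn it away, either alone or in a complex with DCC, so a cell that carries both classes can answer the same ligand in either direction. NEO1 (neogenin) is the closest relative of DCC and also binds repulsive guidance molecules, DRAXIN binds both netrin and DCC, and the UNC5 receptors also bind FLRT proteins. In the cortex these genes are known for the guidance of projection axons, including those of the corpus callosum.

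Types were set by clusters built without the 9 genes and without 45 other genes of the pathway, and were named from marker lists. The cells held 1956 radial glia-like (RG-like), 3326 dividing RG-like, 143 intermediate progenitor-like (IPC-like), 2754 excitatory neuron-like (ExN-like), 165 Cajal-Retzius-like and 2470 choroid plexus-like barcodes, and 9364 barcodes remained unnamed. The nuclei held 4721, 2124, 527, 4090, 110 and 367 barcodes of the same types, and 2289 remained unnamed. Median depth ran from 2074.5 to 8953 transcripts over the named types of the cells and from 3062 to 9661 over those of the nuclei. The 12 radial glia markers summed to 43.5 and 43.99 transcripts per 10000 in RG-like cells and nuclei, against 13.8 and 12.6 in ExN-like barcodes. The 12 excitatory neuron markers summed to 22.01 and 20.01 in ExN-like cells and nuclei, against 3.13 and 2.18 in RG-like barcodes. The markers of choroid plexus summed to 3.22 and 1.08 in ExN-like barcodes and to 4.49 and 1.11 in RG-like barcodes, against 136 and 284 in choroid plexus-like barcodes. Those of Cajal-Retzius cells summed to 24.2 and 63.4 in Cajal-Retzius-like cells and nuclei, where the markers of cortical hem and roof plate summed to 3.48 and 11.5. IPC-like cells and nuclei differed in their markers of division, of which 13 of 14 were raised in the cells and 1 in the nuclei, with sums of 47.3 and 15.4 transcripts per 10000 beside 5.65 and 3.28 for the IPC markers, so the cells of that name were a dividing cluster and the nuclei less so. No marker of the radial glia or the excitatory neuron list was at 0 in either of these types. Genes of hypoxia and glycolysis stood among the first genes by fold of ExN-like clusters (HK2 and PDK1 in cluster 8 of the cells, PDK1 in cluster 0 of the nuclei), and immediate-early genes among those of RG-like clusters 5 and 14 of the nuclei (EGR1 and FOS, and ATF3).

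Among the named types, DCC, the receptor through which netrin attracts axons, was highest in the neuron-like ones in both libraries. Some unnamed clusters held as much as ExN-like clusters and are given further below. In the cells its level was 1.80 transcripts per 10000 in RG-like, 2.82 in dividing RG-like, 8.81 in IPC-like, 21.4 in ExN-like, 33.4 in Cajal-Retzius-like and 5.17 in choroid plexus-like barcodes. In the nuclei the levels in the same order were 1.24, 0.881, 10.1, 47.6, 77.3 and 2.91 transcripts per 10000. Cajal-Retzius-like barcodes, early neurons that secrete reelin, were therefore the highest and ExN-like barcodes the next, with IPC-like barcodes between them and the RG. Between sub-libraries the Cajal-Retzius-like level ran from 24.4 to 49.0 in the cells and the ExN-like level from 19.6 to 23.2, without overlap. The range of the 143 IPC-like cells, 2.80 to 16.0, took in those of choroid plexus-like cells (4.04 to 6.46) and touched that of dividing RG-like cells (2.31 to 4.11). Wells of the first labelling round with at least 20 such barcodes did not separate the 2 neuronal types. By well, ExN-like cells ran from 8.54 to 48.3 (31 wells) and Cajal-Retzius-like cells from 24.7 to 31.4 (3 wells). In the nuclei no 2 types overlapped between the 2 sub-libraries. At a depth of 1000 transcripts DCC was found in 73.3% of ExN-like cells (95% interval 71.6 to 74.9) and 89.7% of ExN-like nuclei (88.7 to 90.6), and before thinning in 94.9% and 96.4%.

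Some DCC was found in every named type, and the level in free RNA is given beside it. Barcodes of 10 to 100 transcripts, taken as free RNA, held 12.3 DCC transcripts per 10000 in the cells and 18.6 in the nuclei, and 1000 transcripts of that mixture would hold DCC in 70.9% and 84.4% of draws. As an upper limit on its part in a type, the upper Poisson bound of a gene's level after thinning was divided by its level in free RNA, and the lowest such value was taken among the 9 genes and the markers with at least 200 transcripts in free RNA (83 genes in the cells, 40 in the nuclei, DCC among them), on the assumption that free RNA in kept barcodes has the composition of these barcodes. Free RNA could then be at most 15.1% of the transcripts of RG-like, 9.81% of ExN-like, 30.2% of Cajal-Retzius-like and 47.8% of choroid plexus-like cells, and at most 4.84%, 5.00%, 17.1% and 14.6% in the nuclei. The DCC share in choroid plexus-like barcodes, 42.1% in the cells (median depth before thinning 2474) and 14.99% in the nuclei (9661), lay under the 44.5% and 23.8% that this limit allows, and so did the 13.8% in RG-like cells (17.0% allowed). As a level after thinning, however, DCC in choroid plexus-like cells was 7.53 transcripts per 10000, above the 5.89 allowed, and in choroid plexus-like nuclei and RG-like cells it was 2.45 and 1.73, under the 2.71 and 1.86 allowed. For these types the pooled values do not clearly separate DCC in the barcodes from DCC in free RNA. Cluster by cluster, each of the 3 choroid plexus-like clusters of the cells lay above its own limit, cluster 9 with 22.6% against 17.6%, cluster 6 with 61.6% against 57.1% and cluster 21 with 66.4% against 34.9%. Free RNA was pooled over all wells of a library, and its composition in single wells was not measured. As 92.9% of cluster 21 came from a single well, its limit may not hold there. These cluster values therefore do not settle whether DCC belongs to the cells. The shares in ExN-like cells (73.3% against 11.4% allowed; median depth 6649), IPC-like cells (37.1% against 12.9%) and IPC-like nuclei (28.5% against 9.69%) lay above the limit as well. Dividing RG-like cells (34.6% against 21.6%) did so through the shallow cluster 3 (51.8% against 17.5%), whereas cluster 7 (20.4%) lay under its limit of 22.7%. The limit of cluster 2 was set by DCC itself, so its share of 11.2% cannot be read against it. In RG-like nuclei the pooled DCC share of 10.4% (9.52 to 11.3) lay above the allowed 8.60%. In dividing RG-like nuclei it was 7.49% (6.40 to 8.69) against 7.32%. RG-like clusters 3 (9.9% against 7.11%), 5 (9.67% against 7.54%) and 7 (8.98% against 8.41%) of the nuclei lay above their own limits. RG-like clusters 6 (11.2% against 11.4%) and 14 (21.1% against 22.6%) lay under theirs. So did dividing RG-like clusters 4 (7.95% against 7.997%) and 8 (6.78% against 7.35%). In the clusters under their limits the share does not separate DCC in the barcodes from DCC in free RNA. The shares of single clusters are given without intervals. Those close to a limit, as in clusters 4 and 7 of the nuclei, cannot be placed on either side of it.

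**Figure D1:**
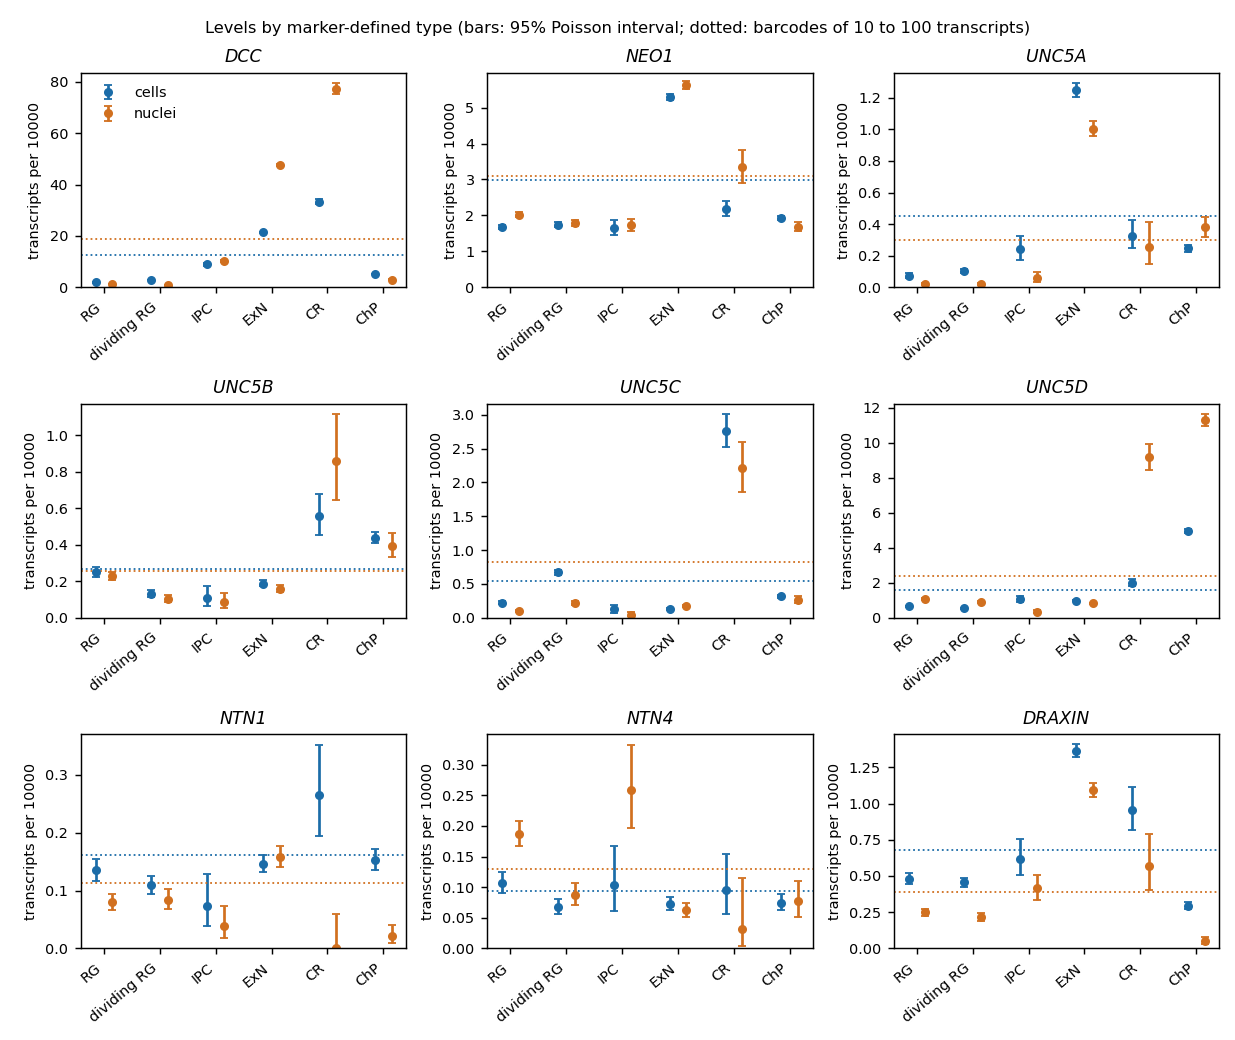
Level of each of the 9 genes (transcripts per 10000, linear axes that differ between panels) in the 6 marker-defined types of the cells and nuclei, with 95% exact Poisson intervals; dotted lines give the level in barcodes of 10 to 100 transcripts. DCC, NEO1, UNC5A and DRAXIN stand high in ExN-like barcodes, UNC5C in Cajal-Retzius-like and UNC5D in choroid plexus-like barcodes of both libraries.

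NEO1, the relative of DCC, was spread over all types and was highest in ExN-like barcodes. Its level was 5.29 transcripts per 10000 in ExN-like cells (5.20 to 5.38) and 5.64 in ExN-like nuclei (5.53 to 5.75). In the other types it ran from 1.65 to 2.18 in the cells and from 1.69 to 3.33 in the nuclei, with Cajal-Retzius-like barcodes at the upper end of both. The ExN-like sub-libraries of the cells (4.99 to 5.62) overlapped with those of no other named type, and the remaining types of the cells could not be ordered, since their ranges overlapped. By well of the first labelling round, however, ExN-like (2.47 to 7.56) and dividing RG-like cells (0.634 to 2.85) overlapped. NEO1 was found in 35.4% of ExN-like cells and 35.6% of ExN-like nuclei after thinning.

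UNC5A, a repulsive receptor, followed the ExN-like barcodes. Its level was 1.25 transcripts per 10000 in ExN-like cells (1.21 to 1.29) and 1.01 in ExN-like nuclei (0.961 to 1.05). RG-like barcodes held 0.0711 and 0.0180, and dividing RG-like barcodes 0.101 and 0.0191. The next highest types were Cajal-Retzius-like in the cells (0.327) and choroid plexus-like in the nuclei (0.379), and no sub-library of a named type reached those of ExN-like barcodes. By well of the first labelling round, choroid plexus-like nuclei (0.0818 to 0.748) reached the lower end of ExN-like nuclei (0.742 to 1.66). After thinning, UNC5A was found in 11.9% of ExN-like cells (0.444% allowed by free RNA) and in 9.05% of ExN-like nuclei (0.149% allowed). In RG-like cells the share of 0.613% (12 of 1956 barcodes) was under the 0.683% allowed, so at this depth it does not separate UNC5A in the barcodes from UNC5A in free RNA.

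DRAXIN, the secreted antagonist, had the same order of ExN-like over RG-like. The level was 1.36 transcripts per 10000 in ExN-like cells and 1.09 in ExN-like nuclei, against 0.480 and 0.248 in RG-like barcodes. Choroid plexus-like barcodes were the lowest of the named types, at 0.292 in the cells and 0.0513 in the nuclei. These summed levels lay under the 0.325 and 0.0566 that free RNA could supply in that type. After thinning, the share in the nuclei (0.545%) also lay under its limit of 0.564%, so it does not separate DRAXIN in the barcodes from free RNA. In the cells clusters 9 (2.00% against 1.06%), 6 (5.23% against 4.56%) and 21 (4.42% against 2.34%, 113 barcodes) lay above their limits. These cluster shares are given without intervals, so those of clusters 6 and 21 are not placed securely. In the cells, Cajal-Retzius-like barcodes (0.959, sub-libraries 0.324 to 1.59) could not be placed apart from ExN-like ones (1.23 to 1.61).

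DCC, UNC5A and DRAXIN thus shared a high level in ExN-like barcodes with NEO1, and the bases before the start sites of these 3 are shown as examples so that they can be compared. The genes lie on the forward strand of GRCh38, DCC at chr18:52340197-53535899, UNC5A at chr5:176810519-176880898 and DRAXIN at chr1:11691710-11725857 (GENCODE 44), and the sequences are from RefSeq on GRCh38.p14, chr18:52339947-52340196, chr5:176810309-176810518 and chr1:11691460-11691709, so that they end at the base before the gene. Capitals mark CANNTG, the E-box bound by proneural factors such as those of the NEUROG and NEUROD families; this motif is its own reverse complement, so both strands were read.
DCC: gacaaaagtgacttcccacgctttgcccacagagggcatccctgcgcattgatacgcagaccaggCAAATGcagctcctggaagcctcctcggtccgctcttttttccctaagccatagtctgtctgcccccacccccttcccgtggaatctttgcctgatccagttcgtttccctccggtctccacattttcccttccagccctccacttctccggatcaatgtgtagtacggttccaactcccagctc
UNC5A: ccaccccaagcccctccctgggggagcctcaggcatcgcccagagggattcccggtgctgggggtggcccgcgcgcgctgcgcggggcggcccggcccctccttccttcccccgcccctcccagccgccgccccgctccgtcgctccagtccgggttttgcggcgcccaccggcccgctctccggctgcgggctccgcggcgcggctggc
DRAXIN: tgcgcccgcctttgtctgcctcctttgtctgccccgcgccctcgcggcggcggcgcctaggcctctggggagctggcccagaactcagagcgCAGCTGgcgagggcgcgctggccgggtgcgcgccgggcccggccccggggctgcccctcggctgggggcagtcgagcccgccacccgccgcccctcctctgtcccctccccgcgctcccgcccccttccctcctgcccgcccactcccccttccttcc

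The DCC window held 1 E-box, 185 bases before the start, the DRAXIN window 1, 158 bases before the start, and the UNC5A window none, where the window of 250 bases of UNC5A ends at the RefSeq start and so runs on past the printed bases into the gene as GENCODE gives it. The same motif was in 61.8% of the 35116 RefSeq windows of 250 bases, so these matches describe the letters and nothing more. The form CAGATG (or CATCTG on the other strand) was in 12.2% of all windows and in none of the windows of the 6 genes with an entry. The window of NEO1 held neither motif and is not printed, since only 58 of its bases lie before the gene as GENCODE gives it. The windows of 250 bases differed in composition, with 56% G and C for DCC, 71.6% for NEO1, 81.2% for UNC5A and 78.8% for DRAXIN, where the median of all windows was 58%.

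UNC5B, the UNC5 gene also known from blood vessels, was low in all named types. It was highest in Cajal-Retzius-like barcodes, with 0.558 transcripts per 10000 in the cells (0.454 to 0.680) and 0.857 in the nuclei (0.644 to 1.12). Choroid plexus-like barcodes followed with 0.437 and 0.395, then RG-like ones with 0.250 and 0.227 and ExN-like ones with 0.187 and 0.159. This order was the same in both libraries, although in the cells the sub-libraries of the first 3 types overlapped, and those of RG-like (0.184 to 0.391) and ExN-like cells (0.150 to 0.216) did too.

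UNC5C, a repulsive receptor that works together with DCC, was highest in Cajal-Retzius-like barcodes among the named types, although some unnamed clusters held more. Its level there was 2.76 transcripts per 10000 in the cells and 2.21 in the nuclei (1.86 to 2.61). RG-like barcodes held 0.222 and 0.0942 and ExN-like barcodes 0.130 and 0.172, and dividing RG-like barcodes held 0.670 and 0.214. The Cajal-Retzius-like cells were uneven, since their sub-libraries ran from 0.372 to 6.61 and overlapped with those of dividing RG-like (0.484 to 0.923), IPC-like (0 to 0.539) and choroid plexus-like cells (0.161 to 0.425), whereas both sub-libraries of the nuclei (2.04 and 2.38) lay above those of every other named type.

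UNC5D, the UNC5 gene known from migrating cortical neurons, was highest in choroid plexus-like barcodes. The level was 4.95 transcripts per 10000 in choroid plexus-like cells (4.85 to 5.05) and 11.3 in choroid plexus-like nuclei (10.98 to 11.65), and 26.4% and 52.9% of these barcodes held it after thinning, against 7.25% and 3.38% allowed by free RNA. Cajal-Retzius-like barcodes came next, with 1.99 in the cells and 9.16 in the nuclei. ExN-like barcodes held 0.978 and 0.818 and RG-like barcodes 0.640 and 1.06. IPC-like barcodes were at 1.05 in the cells, where the 143 barcodes spanned 0.291 to 3.69 between sub-libraries, and at 0.332 in the nuclei, the lowest of the named types there. Among the named types UNC5A was thus highest in ExN-like, UNC5D in choroid plexus-like and UNC5B and UNC5C in Cajal-Retzius-like barcodes of both libraries. UNC5D was found in ExN-like barcodes too, in 7.30% of the cells and 5.45% of the nuclei after thinning.

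The ligands were scarce. NTN1, the first netrin described in the vertebrate spinal cord, ran from 0.0735 to 0.265 transcripts per 10000 over the named types of the cells and from 0 to 0.158 in the nuclei. No NTN1 transcript was found in the 110 Cajal-Retzius-like nuclei, which allows a level of up to 0.0586 per 10000. NTN4, a netrin of basement membranes, ran from 0.0671 to 0.106 in the cells and from 0.0317 (2 transcripts) to 0.259 in the nuclei, with IPC-like (0.259) and RG-like (0.187) nuclei at the upper end. Markers of the floor plate, the main midline source of netrin, summed to at most 0.350 transcripts per 10000 in any named type, and FERD3L was at 0 in every one of them.

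Levels of different genes were compared per length. DCC spans 1195.7 kb of genome and its exons 13.1 kb, 1.10% of the span, whereas UNC5A spans 70.4 kb and DRAXIN 34.1 kb. Per kb of exon, ExN-like barcodes held DCC at 163 per 1000000 transcripts in the cells and 363 in the nuclei, followed by NEO1 with 65.01 and 69.3, UNC5A with 29.0 and 23.3 and DRAXIN with 18.5 and 14.8. Per 100 kb of span the first place went to DRAXIN in the cells (399 per 1000000 transcripts, DCC 179) and to DCC in the nuclei (398, DRAXIN 320). The order between these genes therefore turned on the measure of length, while UNC5C was the lowest of the 9 in ExN-like barcodes of both libraries per span. In choroid plexus-like barcodes UNC5D ranked first of the 9 by either length in both libraries.

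The contrast of ExN-like with RG-like barcodes set these genes against all others. DCC was 11.9-fold higher in ExN-like barcodes of the cells and 38.3-fold in the nuclei, on the log2 scale 3.57 (95% counting interval 3.52 to 3.63) and 5.26 (5.20 to 5.32). UNC5A was 17.6-fold and 55.8-fold higher, NEO1 3.16-fold and 2.80-fold, and DRAXIN 2.84-fold and 4.40-fold. In RG-like cells the shares of DCC and UNC5A lay under their free RNA limits, so the part of free RNA in the denominators of 11.9 and 17.6 is not known. In RG-like nuclei the limits allow free RNA 0.898 of DCC and 0.0144 of UNC5A per 10000, beside levels of 1.24 and 0.0180. The part of free RNA in the denominators of 38.3 and 55.8 is therefore not known either. The 55.8-fold rests on 31 transcripts in RG-like nuclei (95% counting interval of the fold 39.1 to 79.5). The sizes of these folds depended on the definition of the types. Over 10 alternatives the log2 ratio of DCC ran from 1.25 to 3.74 in the cells and from 3.63 to 5.34 in the nuclei, that of UNC5A from 1.9602 to 4.45 and from 4.40 to 6.08, and that of DRAXIN from 1.00 to 1.55 and from 1.88 to 2.28. The lowest values of DCC and UNC5A came with the 9 genes kept in the clustering (DCC) or clusters named from 3 markers (UNC5A) in the cells, and with types set from each barcode's own markers in the nuclei. A 2-fold ratio was passed towards ExN-like barcodes by 4 of the 9 genes in each library, the same 4, where 7.68% of 24574 genes of the cells and 10.1% of 17309 genes of the nuclei passed it. Towards RG-like barcodes it was passed by 0 of the 9 in the cells and by NTN4 in the nuclei (3.01-fold), where 8.57% and 16.5% of all genes did. The median log2 ratio of the 9 genes was 0.61 in the cells and 0.99 in the nuclei, beside -0.07 and -0.22 over all genes. UNC5B was lower in ExN-like barcodes of both libraries, by log2 ratios of -0.42 and -0.52, and NTN1 was at 0.12 and 0.99, where its ratio in the cells ran from -0.38 to 0.47 over the alternatives and so had no stable direction. The 0.99 of NTN1 in the nuclei came with ExN-like cluster 10 (0.495 transcripts per 10000). The other ExN-like clusters of the nuclei held at most 0.0793, under the 0.0796 of RG-like nuclei. UNC5C and UNC5D were on opposite sides in the 2 libraries, with log2 ratios of -0.77 and 0.87 for UNC5C and 0.61 and -0.37 for UNC5D. These directions also turned with the definition of the types, since UNC5D in the cells was at -0.10 with types set from each barcode's own markers and UNC5C in the nuclei at -1.93 with clusters named from 3 markers. No spread between samples stands behind these ratios, which compare types within 1 library each. In these sums, fewer barcodes with the gene and fewer transcripts per barcode cannot be told apart.

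**Figure D2:**
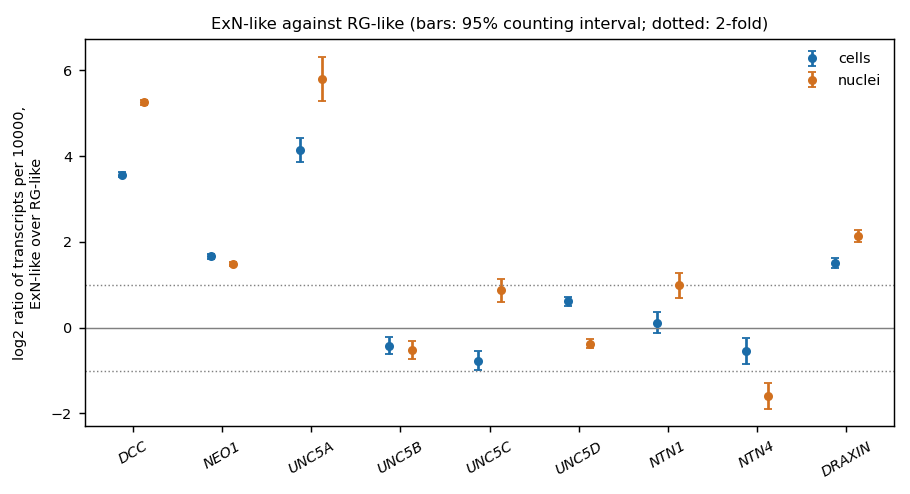
Log2 ratio of the level in ExN-like to that in RG-like barcodes for the 9 genes in the cells and nuclei, with 95% counting intervals; dotted lines mark a 2-fold ratio. DCC, NEO1, UNC5A and DRAXIN lie above 2-fold in both libraries, and UNC5C and UNC5D change sides.

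Of the 45 other genes of the pathway, 43 had the minimum of 100 transcripts in both libraries. In the cells 7 were past 2-fold towards ExN-like barcodes, 7 towards RG-like barcodes and 29 lay between, and in the nuclei the counts were 10, 7 and 26. All 14 of the cells were past it in the nuclei too, in the same direction, where 1112 and 1490 of the 17307 genes measured in both libraries were. Those with the largest ratios in the cells are named here. Higher in ExN-like barcodes were the receptor phosphatase PTPRD (10.1-fold in the cells, 34.9-fold in the nuclei), the UNC5 ligands FLRT2 (9.59-fold and 25.7-fold) and FLRT1 (2.79-fold and 2.78-fold), the netrin co-receptor DSCAM (8.71-fold and 12.8-fold), its relative DSCAML1 (2.71-fold and 4.24-fold), TRIM67, a ubiquitin ligase that binds DCC (2.69-fold and 8.77-fold), and the membrane-bound netrin NTNG1 (2.68-fold and 7.15-fold). Higher in RG-like barcodes were LRIG3, of a family that binds neogenin (8.51-fold and 14.3-fold), the Rac activator DOCK1 (4.40-fold and 8.23-fold), the cell adhesion protein MCAM (4.39-fold and 5.77-fold) and the filopodial motor MYO10 (2.79-fold and 3.404-fold). By group, 3 of 7 co-receptors stood on each side in both libraries, whereas of 21 genes that signal inside the cell 18 in the cells and 17 in the nuclei lay between. The median log2 ratio of the list was 0.04 in the cells and 0.02 in the nuclei.

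Co-detection of the 2 receptor classes, at least 1 transcript of DCC or NEO1 together with at least 1 of the 4 UNC5 genes, was then read per barcode at a depth of 1000 transcripts. It was found in 16.9% of ExN-like cells (15.5 to 18.3; 465 of 2754) and in 15.3% of ExN-like nuclei (14.2 to 16.5; 627 of 4090). In RG-like barcodes the shares were 2.35% in the cells (1.73 to 3.12; 46 of 1956) and 3.20% in the nuclei (2.72 to 3.74; 151 of 4721). The value in RG-like cells rested on a single cluster and was 9.64% with types set from each barcode's own markers and 9.18% with clusters named from 3 markers. Cajal-Retzius-like barcodes held the highest share of the named types, 24.8% of the cells (18.5 to 32.2, 41 of 165) and 53.6% of the nuclei (43.9 to 63.2, 59 of 110). In the cells, however, choroid plexus-like cluster 21 (28.3%), ExN-like cluster 0 (25.5%) and unnamed cluster 11 (24.6%) lay within that interval. Choroid plexus-like barcodes were at 16.2% and 16.1%, dividing RG-like barcodes at 6.58% and 2.45% and IPC-like barcodes at 3.50% and 2.47%. Unnamed barcodes were at 15.4% in the cells and 25.6% in the nuclei, and all kept barcodes at 13.0% and 10.9%. Thinning set the size of these shares, since unthinned ExN-like barcodes were at 61.5% and 41.9% and unthinned RG-like barcodes at 27.6% and 15.3%.

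Draws of 1000 transcripts from free RNA, pooled over each library, would hold both classes in 19.4% of cases for the cells and 27.6% for the nuclei. At the upper limits of free RNA given above, both classes would be found in 0.380% of ExN-like, 0.864% of RG-like, 3.04% of Cajal-Retzius-like and 6.58% of choroid plexus-like cells, and in 0.186%, 0.175%, 1.91% and 1.43% of the nuclei. These values count only barcodes in which both receptors come from free RNA, and a transcript of the cell next to one of free RNA would add to them, so a share above them does not show that both receptors belong to the cell. In RG-like cells and in choroid plexus-like barcodes the attractive class included DCC, whose pooled share lay under its own limit.

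The classes were uneven in each type. DCC or NEO1 without UNC5 was found in 63.8% of ExN-like cells and 76.9% of ExN-like nuclei, whereas UNC5 without DCC or NEO1 was found in 3.23% and 1.05%. Choroid plexus-like barcodes were the reverse in the nuclei, where 41.4% held UNC5 alone and 12.5% DCC or NEO1 alone. In the cells the same type held 16.6% and 35.99%, and the shallow cluster 6 (median 1424.5 transcripts, DCC 10.6 per 10000) and cluster 21 (92.9% of its barcodes from a single well of the first labelling round) belonged to it, while cluster 9 (median 6669) held 3.75 DCC and 5.50 UNC5D transcripts per 10000. Neither class was found in 65.7% of RG-like cells and 66.4% of RG-like nuclei. At least 2 different UNC5 genes were found in 4.85% of Cajal-Retzius-like cells and 13.6% of Cajal-Retzius-like nuclei, against 1.67% and 0.954% of ExN-like barcodes.

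**Figure D3:**
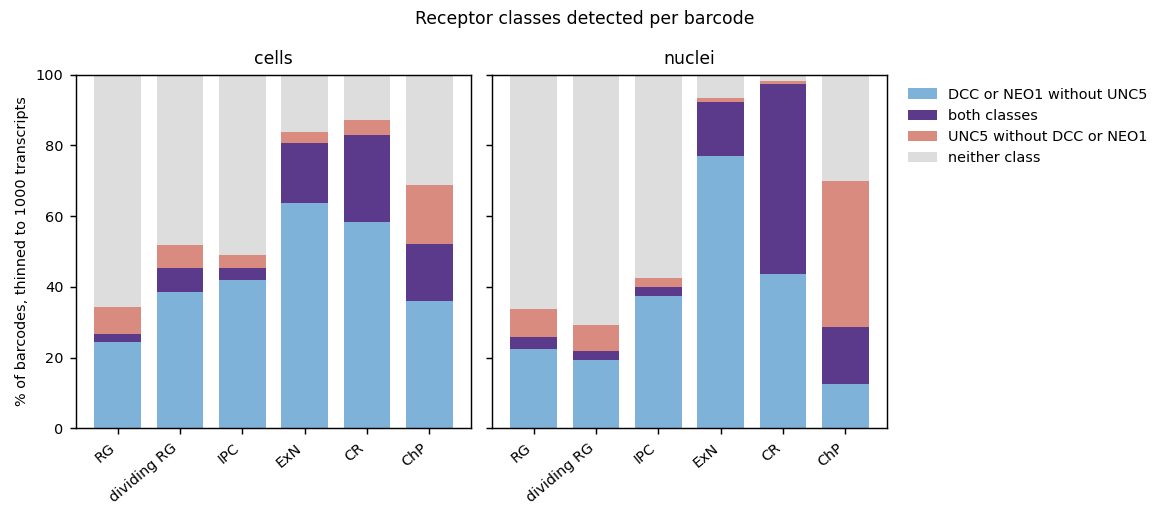
Shares of barcodes (%, after thinning to 1000 transcripts) with DCC or NEO1 without UNC5, with both classes, with UNC5 without DCC or NEO1 and with neither, in the 6 types of the cells and nuclei. Both classes together are at 16.9% and 15.3% of ExN-like barcodes and at 24.8% and 53.6% of Cajal-Retzius-like ones, and UNC5 alone is at 41.4% of choroid plexus-like nuclei.

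The partner of DCC differed by type. DCC with UNC5A was found in 9.01% of ExN-like cells (7.96 to 10.1) and 8.48% of ExN-like nuclei (7.65 to 9.38), and in 1.21% and 0.909% of Cajal-Retzius-like barcodes, which were 2 cells and 1 nucleus. DCC with UNC5D was found in 12.7% of Cajal-Retzius-like cells and 43.6% of the nuclei, against 5.56% and 4.94% of ExN-like barcodes. For DCC with UNC5C the shares were 11.5% and 15.5% of Cajal-Retzius-like and 0.799% and 1.05% of ExN-like barcodes. UNC5B joined DCC in 4.24% and 7.27% of Cajal-Retzius-like barcodes. The attractive receptors DCC and NEO1 were found together in 28.1% of ExN-like cells and 33.1% of ExN-like nuclei. DCC and its antagonist DRAXIN were found together in 8.86% and 9.24% of ExN-like barcodes.

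**Figure D4:**
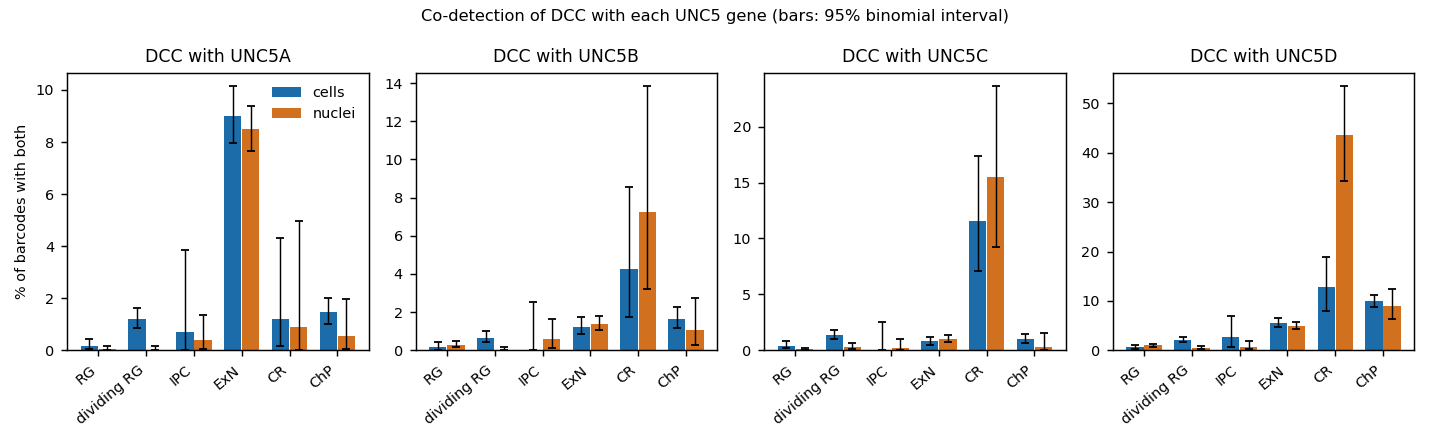
Shares of barcodes (%, thinned to 1000 transcripts, with 95% exact binomial intervals) holding DCC together with UNC5A, UNC5B, UNC5C or UNC5D in the 6 types of the cells and nuclei; the axes differ between panels. DCC with UNC5A is highest in ExN-like barcodes, and the other 3 pairs are highest in Cajal-Retzius-like barcodes of both libraries.

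The share with both classes was then divided by the product of the share with DCC or NEO1 and the share with any UNC5. Over the types with at least 10 such barcodes this ratio ran from 0.881 to 1.10 in the cells and from 0.977 to 1.21 in the nuclei. It was 0.881 and 1.12 in RG-like barcodes and 0.946 and 0.977 in choroid plexus-like ones. A ratio cannot be far above 1 where a class is in nearly all barcodes, and DCC or NEO1 was in 80.6% of ExN-like cells, 92.2% of ExN-like nuclei and 97.3% of Cajal-Retzius-like nuclei, so the ratios there (1.04, 1.01 and 1.01) say little about whether the classes go together. For DCC with UNC5A the ratio was 1.33 over all kept cells and 2.04 over all kept nuclei. In ExN-like barcodes, where DCC itself was in 73.3% and 89.7%, it was 1.04 and 1.05 with the same limit, and in dividing RG-like cells (40 barcodes with both), whose clusters differ in depth and DCC level, it was 1.65. Between UNC5 genes, UNC5C and UNC5D were found together in 5 Cajal-Retzius-like cells (3.03%) and 13 Cajal-Retzius-like nuclei (11.8%), 1.65 and 1.62 times the product. The 5 cells fall under the minimum of 10 used above. Over all kept barcodes the ratio of this pair was 1.03 in the cells and 1.80 in the nuclei. The 1 named type of the cells with at least 10 such barcodes was at 0.910.

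The members also varied among clusters of a single type. In the cells, ExN-like cluster 0 held 30.8 DCC, 6.70 NEO1 and 1.89 UNC5A transcripts per 10000 and both classes in 25.5% of barcodes. Cluster 8, with HK2 and PDK1 among its first genes, held 14.7, 3.67 and 0.715 and both classes in 9.38%, and whether the stress program has a part in this was not tested. In the nuclei, cluster 12 (54.1 DCC, 1.86 UNC5A, 1.98 UNC5D) and cluster 9 (49.1, 1.27 and 0.331) contrasted with cluster 0 (22.8, 0.454 and 0.887), which had PDK1 among its first genes. ExN-like cluster 16 of the nuclei, with EBF2 and CNTN2 among its first genes, held as much DCC (77.5) as the Cajal-Retzius-like nuclei (77.3) but less NEO1 (1.95 against 3.33). NTN1 was 0.495 in ExN-like cluster 10 of the nuclei and at most 0.0793 in the other ExN-like clusters of that library. Dividing RG-like cluster 7 of the cells, led by SV2C, held 1.52 UNC5C transcripts per 10000, where the other dividing clusters, 2 and 3, held 0.217 and 0.190. The high UNC5C of dividing RG-like cells therefore came from that cluster, and the high DCC share of dividing RG-like cells came with the shallow cluster 3 (median 1360 transcripts, 7.96 DCC per 10000), where cluster 2 (median 9160.5) held 1.46.

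Several clusters without a name held the receptors at high levels. Cluster 11 of the cells, with the radial glia markers GLI3, HES1 and PTPRZ1 raised, held 18.3 DCC transcripts per 10000. This was above ExN-like clusters 8 (14.7) and 20 (14.0), and its DCC share was 78.6% against 29.7% allowed by free RNA. Cluster 13 of the nuclei, with 5 markers of division and only BHLHE22 of the excitatory neuron list raised, held 22.9 DCC, beside 22.8 in ExN-like cluster 0. Cluster 1 of the nuclei (724 barcodes), with GFRA1, GAD1, UNC5C, EBF1 and EBF3 as its first genes, held 38.9 DCC, 8.36 UNC5C and 6.57 UNC5D transcripts per 10000, and both receptor classes were found in 43.0% of its barcodes. Its UNC5C level was the highest of the 19 clusters of the nuclei. Cluster 11 of the nuclei, led by RSPO2 and with 6 of 9 choroid plexus markers raised, held 6.47 UNC5D. PAX3 was the first gene of cluster 18 of the nuclei, which held 4.69 UNC5C and 0.437 NTN1, and of cluster 13 of the cells, which held 2.96 UNC5C and 0.977 NTN1, its highest NTN1 level of any cluster of the cells; 61.8% of that cluster came from a single well. In unnamed cluster 4 of the cells, with EBF2, NHLH1 and EOMES first, DCC was at 23.3 and NEO1 at 1.67. Its NEO1 was low as in cluster 16 of the nuclei, but its DCC lay under that of Cajal-Retzius-like cells (33.4).

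**Figure D5:**
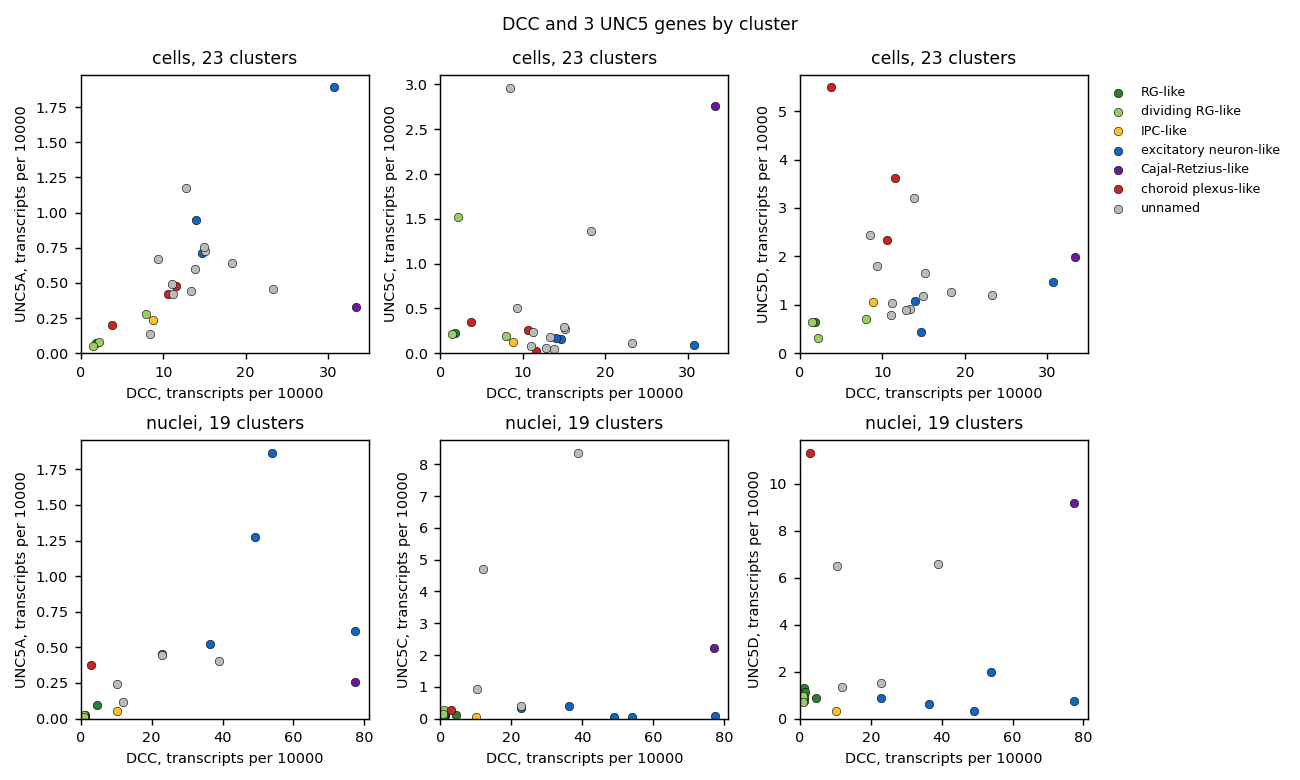
DCC against UNC5A, UNC5C and UNC5D (transcripts per 10000, linear axes) in 23 clusters of cells and 19 clusters of nuclei, with 1 point for each cluster, coloured by type. The highest UNC5A is in ExN-like clusters, although unnamed cluster 22 of the cells (1.17) lies above ExN-like clusters 8 (0.715) and 20 (0.946). High UNC5C goes with the Cajal-Retzius-like clusters, dividing RG-like cluster 7 of the cells and some unnamed clusters. High UNC5D goes with choroid plexus-like clusters and Cajal-Retzius-like nuclei, over a wide range of DCC. Unnamed clusters 13 and 18 of the cells and 1 and 11 of the nuclei are high in UNC5D too.

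Genes whose pattern over the clusters was most like that of each member were found by Pearson's r over the 23 clusters of the cells among 4656 genes, with r over the 19 clusters of the nuclei beside it. Clusters share depth and free RNA, so these values are descriptions. DCC was most like CCSER1 (r of 0.94 in the cells and 0.94 in the nuclei), CELF3 (0.93 and 0.94) and NFASC (0.93 and 0.97). NEO1 was most like XPR1 (0.95 and 0.85), SLC24A2 (0.94 and 0.91) and MYO5B (0.94 and 0.90), and UNC5A was much like TBR1 (0.93 and 0.87) and CACNA1E (0.93 and 0.89). DRAXIN was most like MIR124-1HG (0.91 and 0.85), CACNA1A (0.90 and 0.89) and SPAST (0.89 and 0.79). For UNC5D the first was CLSTN2 (0.81 and 0.69), ahead of CPEB2 (0.80 and 0.63) and LAMB1 (0.80 and 0.77). For NTN1 the first genes were LRRC4C (0.84 and 0.07), CNTNAP5 (0.82 and -0.02) and EYS (0.79 and 0.11), for NTN4 LCMT1 (0.68 and -0.14), LINC00595 (0.65 and 0.63) and MKRN1 (0.64 and 0.24), and for UNC5C 3 non-coding or unnamed genes, ENSG00000286757 (0.81 and 0.47), ENSG00000225689 (0.77 and 0.33) and LINC03006 (0.77 and -0.03). UNC5B had RPL13A (0.80 and 0.22), ESRRG (0.80 and 0.41) and ERBB4 (0.80 and 0.70). For these members most of the likeness seen in the cells was smaller in the nuclei.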

How the data were processed

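The counts the authors deposited are transcripts per barcode and gene, without normalization, selection of barcodes or removal of free RNA, made with the Parse Biosciences pipeline on GRCh38 in 8 sub-libraries of the cells and 2 of the nuclei. Depth was 254967545 transcripts in the cells and 82339738 in the nuclei. Members and gene lists were chosen with earlier results of these data known.

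Kept barcodes were scaled to 10000, log-transformed and clustered on 2000 variable genes without members and pathway genes, with 30 components, 15 neighbours and Leiden resolution 1 (scanpy 1.11.5, igraph 0.11.9, scikit-learn 1.9.0, Python 3.11.15). A cluster was named when at least 4 markers of a type were 1.5 times the mean of other barcodes and in at least 10% of the cluster. Their number also had to be at least 2 above that of any other type, with the list of dividing cells left out. No name was given where the first genes by fold held more markers of another type, or where division came with markers other than those of RG or IPC. Scrublet marked 0 barcodes in each library and is taken as not having worked, so no doublets were removed; an alternative leaves out the 1009 cells and 427 nuclei with the highest scores. Shares were read after thinning to 1000 transcripts without replacement. With 1 sample a group no test was run; ratios of sums past 2-fold among genes with at least 100 transcripts are descriptions. Intervals are 95% exact Poisson or exact binomial (scipy 1.17.1) and cover counting error only. Groups were not compared, as no barcode carries its condition, and p-values are not given. The text names the 9 members, up to 12 pathway genes past 2-fold in the same direction in both libraries, the 3 genes most like each member (r of log2 levels plus 0.1, among genes with a mean of at least 0.5), and first genes of clusters where a statement rests on them; a few genes that this rule names are not reported here. Steps were tested on simulated data. Alternatives were other depths, detection rules, limits on barcodes, clusterings, type rules and scalings.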

Additional observations from a re-analysis of the deposited data

Results flagged for a closer look

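UNC5D and UNC5C stood out because the contrast of excitatory neuron-like with RG-like barcodes went in opposite directions in the cells and in the nuclei. For UNC5D the log2 ratio was 0.61 in the cells and -0.37 in the nuclei, and for UNC5C it was -0.77 and 0.87. The difference between the libraries was not tested, since each is 1 sample, and they also differ in preparation, day and condition.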

How the results depend on the processing

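Each library is 1 sample, so no spread between organoids is known, and depth decides how often 2 receptors are found in the same barcode. No paired analysis was possible because each group is 1 library. With no thinning, co-detection was 27.6% in RG-like and 61.5% in excitatory neuron-like (ExN-like) cells and 15.3% and 41.9% in the nuclei, with thinning to 2000 transcripts 6.95% and 29.9%, and 7.58% and 26.7%, and with at least 2 transcripts of each class, unthinned, 11.3% and 38.4%, and 4.28% and 19.1%. RG-like cells moved to 3.17% with thinning seed 1, to 9.70% with members kept among the variable genes, to 9.64% with types set per barcode and to 9.18% with names from at least 3 markers; ExN-like cells moved to 19.3% at Leiden resolution 2 and with members kept, and to 15.4% with 3 markers. Types set per barcode gave 4.05% and 17.9% in RG-like and ExN-like nuclei, and a limit of more than 5000 transcripts 13.4% in ExN-like nuclei. ExN-like barcodes were above RG-like ones under each of these settings.

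The share of all genes past 2-fold towards RG-like cells was 3.50% at Leiden resolution 0.5, 4.90% at resolution 2 and 17.1% with types per barcode. Without the minimum of 100 transcripts the shares were 19.7% towards ExN-like and 14.2% towards RG-like cells, and 18.9% and 24.98% in the nuclei. DCC, NEO1, UNC5A and DRAXIN were past 2-fold towards ExN-like barcodes in all 10 alternatives of their levels in both libraries. Towards RG-like cells, 1 of 9 members instead of 0 passed with members kept, types per barcode, log means, equal weight of barcodes or 3 markers, and 2 instead of 1 passed in the nuclei with 3 markers. With types per barcode the log2 ratio of UNC5D in the cells was -0.10 and that of NTN4 0.040, and with 3 markers that of UNC5C in the nuclei was -1.93; the cause was not tested. The alternatives of 3 markers, equal weight of barcodes and leaving out barcodes above 50000 transcripts were chosen after seeing the data.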

Other observations

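The wells of the first labelling round hold barcodes of unknown condition and are given as values. Over the 48 wells of the cells with at least 20 kept barcodes, DCC ran from 2.82 through a median of 10.7 to 20.8 transcripts per 10000, UNC5C from 0.0868 through 0.319 to 2.41, UNC5D from 0.152 through 1.49 to 4.55, and co-detection from 3.64% through 12.7% to 26.9%. Within ExN-like barcodes, DCC ran from 8.54 through 18.8 to 48.3 over 31 wells of the cells and from 31.3 through 34.9 to 64.5 over the 12 wells of the nuclei.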
